A study of Homo sapiens with 3 samples.

Results

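Heterotrimeric G proteins and the regulators of G protein signalling (RGS proteins) were examined as 43 genes: 18 RGS genes, 12 α subunit genes, 5 β subunit genes and 8 γ subunit genes. The members were listed by gene name, with earlier results of these data known. They were measured by 120 of the 41097 probe sets that carry 1 gene symbol, and they were 43 of 19775 genes in all. The cells were SKOV-3, an established human ovarian cancer line, transduced with an shRNA by lentivirus and selected with puromycin as stable populations. SKOV-3/G9a shRNA1 cells carried an shRNA against G9a, a histone H3 lysine methyltransferase encoded by EHMT2. SKOV-3/G9a shRNA2 cells carried another shRNA against it, and SKOV-3/Luc shRNA cells carried an shRNA against luciferase as the control. Total RNA of each of the 3 conditions was hybridised to 1 Affymetrix array, so no value below has a replicate error, and a ratio compares arrays and not conditions.

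A heterotrimeric G protein joins a receptor of the cell surface to enzymes and channels inside the cell. An activated receptor loads the α subunit with GTP, α and the βγ pair part and act on their effectors, and the signal ends when α cleaves its GTP, which RGS proteins speed up. The α subunits fall into families: Gi/o lowers cyclic AMP, Gs and its olfactory relative raise it and Gq activates phospholipase C-β, while G12/13 forms a family of its own.

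Values are MAS5 signals, a linear brightness of each probe set, and a gene is described at its brightest probe set by mean log2 signal. Signals of different probe sets are not comparable with each other, so each gene is compared only with itself across arrays. The log2 ratio is that of a G9a shRNA array over the Luc shRNA array, with no pseudocount, and a gene was counted as higher or lower when it passed 2-fold (a log2 ratio of 1) with both shRNAs. A gene entered the counts when the highest of its 3 signals reached the median of all values, 12.0, and a stricter filter took the 75th percentile, 89.7. The difference between the G9a shRNA arrays had an SD of 0.24 on the log2 scale over genes past the 75th percentile, 0.87 over genes that passed only the median, and 1.76 under it, so ratios of dim genes are far less precise. Both comparisons share the Luc shRNA array, and its error enters both ratios of a gene alike.

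The EHMT2 signal was 29.7 with G9a shRNA1 and 79.2 with G9a shRNA2, against 182 with Luc shRNA. A second EHMT2 probe set, dimmer, gave log2 ratios of -0.21 and -0.75. All 10 epithelial markers measured passed the filter, against 2 of 10 leukocyte markers and 2 of 10 endothelial and pericyte markers. Medians of the arrays lay between 11.7 and 12.3. The 3′ to 5′ ratio of the β-actin control probe sets was 1.83 and 1.47 with the G9a shRNAs and 3.68 with Luc shRNA, while that of GAPDH lay between 1.12 and 1.15. Its part in the results below was not tested.

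Of the 43 members, 32 passed the filter at the median, beside 13192 of 19775 genes in all. The 32 were 10 of 18 RGS genes, 9 of 12 α genes and all 13 β and γ genes. Of these, 21 also passed the 75th percentile, beside 8348 of 19775 genes. The 11 under the filter were RGS1, RGS4, RGS6, RGS7, RGS9, RGS13, RGS16, RGS18, GNA14, GNA15 and GNAO1, and they are given no fold. Among these, RGS1, RGS13 and RGS18 are known from blood cells, RGS6, RGS7 and RGS9 from neurons, GNAO1 as the main α subunit of brain, and GNA15 as a Gq member of blood-forming cells.

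**Figure D1:**
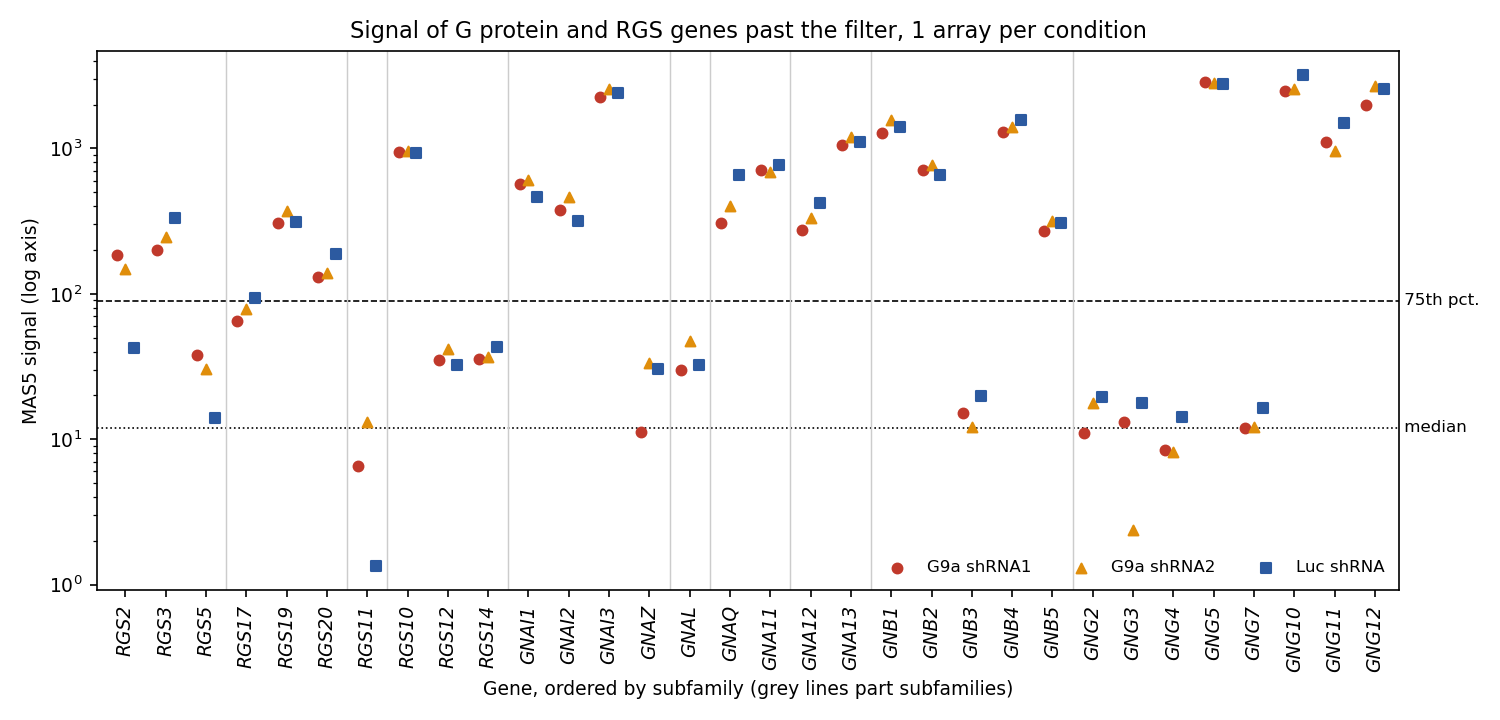
MAS5 signal (log axis) of the 32 G protein and RGS genes past the filter, at the brightest probe set, with 1 point per array: G9a shRNA1 (circles), G9a shRNA2 (triangles) and Luc shRNA (squares). The dotted line marks the median of all values (12.0) and the dashed line their 75th percentile (89.7). RGS2 stands at 185 and 148 with the G9a shRNAs and at 42.6 with Luc shRNA, while most subunits differ little between arrays.

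RGS2, RGS5 and RGS11 were more than 2-fold higher with both G9a shRNAs, and no member was more than 2-fold lower with both. That is 3 of 32 members (9.38%) higher, beside 2.57% of the 13192 genes past the filter, and 0 of 32 lower, beside 1.66%. RGS11 passed the filter through the G9a shRNA2 array alone, and without it the count is 2. Past the 75th percentile it is 1 of 21 (4.76%) higher, RGS2, beside 0.611% of 8348 genes, and 0 of 21 lower, beside 0.467%. RGS2 reached that filter only on the arrays where it was high, so its share there is a description. When 1 shRNA past 2-fold was enough, as long as the ratios had the same sign, 3 of 32 members were higher, beside 5.26%, and 2 of 32 (6.25%) lower, GNAQ and GNG3, beside 5.59%. The same looser rule past the 75th percentile gave RGS2 higher, 1 of 21 beside 1.71%, and GNAQ lower, 1 of 21 beside 2.01%. A limma fit can take the G9a arrays as a group of 2 and give the single control their spread, which comes from different shRNAs and holds no error of the control. Its calls at an adjusted p under 0.05 therefore compare these arrays and not the conditions: RGS2 and RGS5 higher, 2 of 32 members beside 2.66% of all genes, and GNAQ lower, 1 of 32 (3.12%) beside 1.9%. With counts of 3 or fewer, 1 gene more or less would move each of these shares by several percentage points.

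RGS2, an R4 family RGS protein that acts chiefly on Gq and is also an immediate early gene, was the member that moved furthest among those with a bright signal. Its signals were 185 with G9a shRNA1 and 148 with G9a shRNA2, against 42.6 with Luc shRNA, so both G9a arrays lay well above the control. The ratios were 4.35-fold and 3.47-fold (log2 ratios of 2.12 and 1.79). The gene has 1 probe set with a single symbol, so no other probe set can be set beside it. The study picked RGS2 out from these arrays and followed genes from them with quantitative RT-PCR, which is not part of the data used here. The rise of RGS2 on these arrays is therefore not independent evidence of its direction. In extracts of whole cultures, a larger share of cells with RGS2 RNA and more RGS2 RNA per cell cannot be told apart.

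The start of RGS2 is rich in CG dinucleotides, and that of RGS13, its nearest neighbour of the same family, is poor in them. Both sequences are shown because they lie side by side on chromosome 1 and only RGS2 passed the filter. They run from 250 bases before to 50 bases after the RefSeq transcription start on GRCh38.p14, 5′ to 3′ on the + strand, with every CG in capitals. The RGS2 window is chr1:192808789-192809088 and the RGS13 window chr1:192635897-192636196.
RGS2: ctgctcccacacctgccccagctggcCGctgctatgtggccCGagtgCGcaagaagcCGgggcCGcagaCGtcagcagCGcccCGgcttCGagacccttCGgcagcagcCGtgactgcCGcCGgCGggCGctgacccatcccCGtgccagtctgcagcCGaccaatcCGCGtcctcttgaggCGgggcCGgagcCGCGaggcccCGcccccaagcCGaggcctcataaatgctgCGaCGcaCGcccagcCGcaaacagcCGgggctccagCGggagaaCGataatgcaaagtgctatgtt
RGS13: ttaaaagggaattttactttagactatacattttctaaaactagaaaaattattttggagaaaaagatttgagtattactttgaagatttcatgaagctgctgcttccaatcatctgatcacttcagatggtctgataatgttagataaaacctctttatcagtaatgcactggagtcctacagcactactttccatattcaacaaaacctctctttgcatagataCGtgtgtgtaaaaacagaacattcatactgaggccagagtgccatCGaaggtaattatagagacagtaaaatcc

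The RGS2 window holds 32 CG dinucleotides at 69.7% G and C. The RGS13 window holds 2 at 33.7%, and the medians over the 35116 RefSeq promoter windows of this length were 14 and 58.7%. On either strand, the RGS2 window matched 3 of 5 motifs searched. TGACG, the core of the cyclic AMP response element, was read as CGTCA 181 bases before the start and occurs in 24.6% of all windows. CCAAT stood 89 bases before the start (34.6% of windows) and GGGCGG, the GC box, was read as CCGCCC 47 bases before it (45.0% of windows). The full element TGACGTCA, which contains TGACG, and TATAAA were not in this window, and 1.85% and 11.5% of all windows hold them.

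Promoter windows were listed for 37 of the 43 members. Taking the window with the most CG dinucleotides for each gene, the 27 members past the filter had 6 to 48, with a median of 33, and 23 of 27 had over 20. The 10 members under the filter had 2 to 48, with a median of 20.5, and 5 of 10 had over 20. The groups overlap over most of their range: GNG2 and GNG3, both past the filter, had 7 and 6, and GNAO1, under it, had 48. These are the highest of the windows of each gene, so they cannot be set against the median of 14 over single windows. The same measure over all genes was not taken.

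No gene around RGS2 with a value past the filter passed 2-fold. Few genes do: past the 75th percentile, 0.611% of all genes were higher and 0.467% lower with both shRNAs. A few neighbours without such a change therefore say little. In the RefSeq order of protein-coding genes on GRCh38.p14, RGS13, RGS1, RGS21 and RGS18 follow each other on one side, a run of R4 family genes, of which none gave a value past the filter. On the other side, UCHL5, a deubiquitinase, had log2 ratios of 0.00 and 0.39, and RO60, which binds small cytoplasmic RNAs, had -0.08 and -0.12. GLRX2, a mitochondrial glutaredoxin, had 0.11 and 0.18, and CDC73, a subunit of the PAF1 complex, had 0.11 and -0.07.

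**Figure D2:**
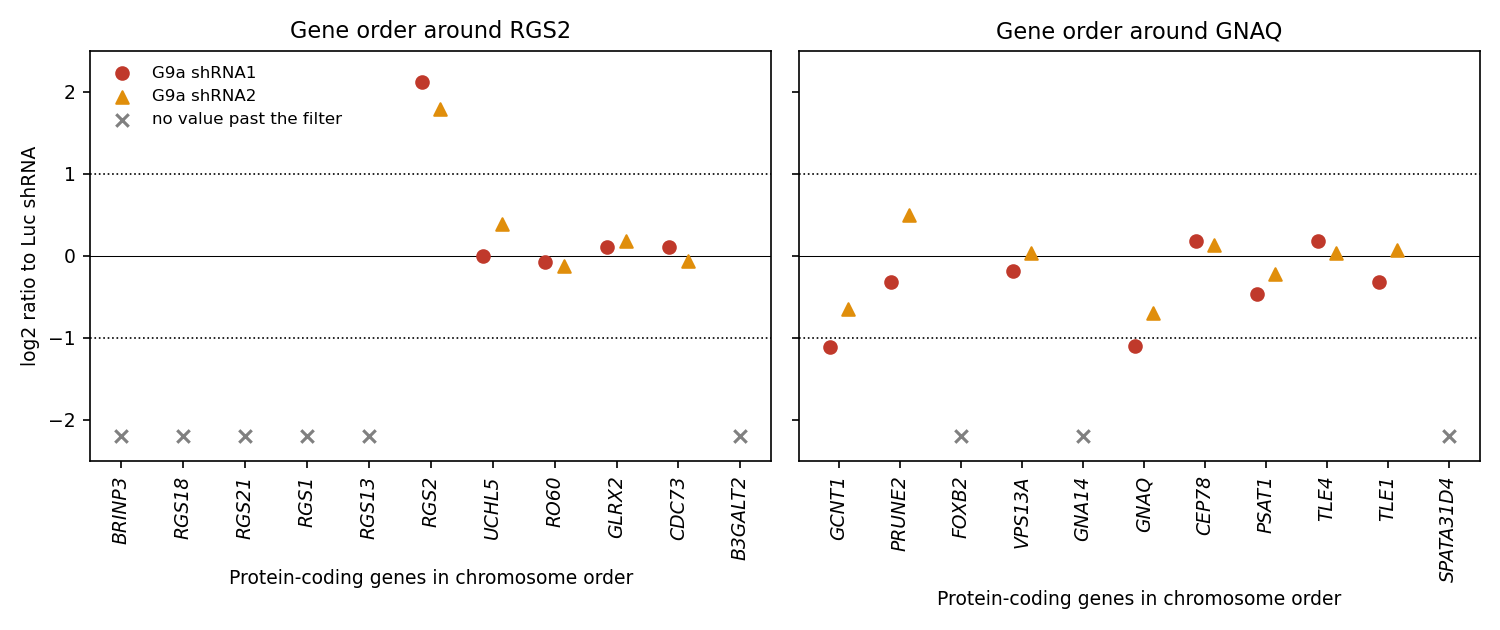
Log2 ratio of the G9a shRNA1 array (circles) and the G9a shRNA2 array (triangles) to the Luc shRNA array for RGS2 and GNAQ and the 5 protein-coding genes on either side, in chromosome order. Crosses mark genes with no value past the filter, and dotted lines mark 2-fold. RGS2 stands at 2.12 and 1.79, and its 4 neighbours past the filter lie between -0.12 and 0.39.

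RGS5, an R4 family RGS protein known as a pericyte marker, passed 2-fold at its brightest probe set, but its other probe sets disagreed. The signals were 38.2 with G9a shRNA1 and 30.4 with G9a shRNA2, against 14.1 with Luc shRNA, log2 ratios of 1.44 and 1.11. Of the 4 other RGS5 probe sets past the filter, 1 gave 1.02 and 0.77, 1 gave -0.79 and -1.11, and the remaining pair lay at 0.01 and -0.43 and at 0.11 and -0.41. The mean over the 5 was 0.17. Of 10 endothelial and pericyte markers, only PECAM1 and DES passed the filter. The defining pericyte genes CSPG4, ABCC9 and KCNJ8 stood under it on all arrays. PECAM1 had 29.9 and 28.5 with the G9a shRNAs, against 15.4 with Luc shRNA. DES had 18.2 and 13.8, against 6.30 with Luc shRNA, and passed the filter through the G9a shRNA arrays alone. The part of these genes in the RGS5 values was not tested.

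RGS11, an R7 family protein that pairs with the β5 subunit, passed the filter only through the G9a shRNA2 array. Its signals were 6.51 with G9a shRNA1 and 13.2 with G9a shRNA2, against 1.34 with Luc shRNA. The log2 ratios of 2.27 and 3.29 fall to 0.00 and 0.14 when values under the median of all values are raised to it.

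Of the other R4 and RZ genes past the 75th percentile, RGS3, RGS17 and RGS20 lay below the control with both shRNAs and RGS19 lay on both sides of it. RGS3, which acts on Gi and Gq subunits, had 199 with G9a shRNA1 and 245 with G9a shRNA2, against 331 with Luc shRNA, log2 ratios of -0.74 and -0.44. Of its other probe sets, both dimmer, 1 gave -0.14 and -0.11 and 1 gave 0.54 and 3.04. With that last one the mean over probe sets had the other sign, 0.36. It passed the filter through the G9a shRNA2 array alone. Its ratios fall to 0.00 and 0.25 when values under the median of all values are raised to it. RGS20, an RZ family protein that acts on Gz, had 130.4 and 139.6 with the G9a shRNAs, against 189 with Luc shRNA. Its log2 ratios were -0.53 and -0.43, and a second probe set gave -0.92 and -0.55, so both RGS20 probe sets were lower with both shRNAs. RGS17, of the same family, had 65.3 and 78.7, against 93.0 with Luc shRNA, log2 ratios of -0.51 and -0.24 at its 1 probe set, which passed the 75th percentile on the Luc shRNA array alone. RGS19, the GAIP protein, had 306 and 372, against 313 with Luc shRNA, and its ratios had opposite signs.

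The R12 family changed little at the brightest probe sets. RGS10, a small RGS protein for Gi family subunits, had 938 and 965 with the G9a shRNAs, against 924 with Luc shRNA, log2 ratios of 0.02 and 0.06. Its other probe sets, under the 75th percentile, gave -0.42 and -1.25 and -0.22 and -0.04. RGS12 had 35.2 and 41.5, against 32.5 with Luc shRNA, and RGS14, a scaffold that also binds Gi in its GDP form, had 35.6 and 36.6, against 42.9 with Luc shRNA. A second RGS14 probe set gave 0.10 and 0.68, opposite in sign to the brightest. Of 10 RGS12 probe sets, 5 passed the filter, and their log2 ratios ran from -0.25 to 0.78 with G9a shRNA1 and from -0.12 to 1.96 with G9a shRNA2.

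**Figure D3:**
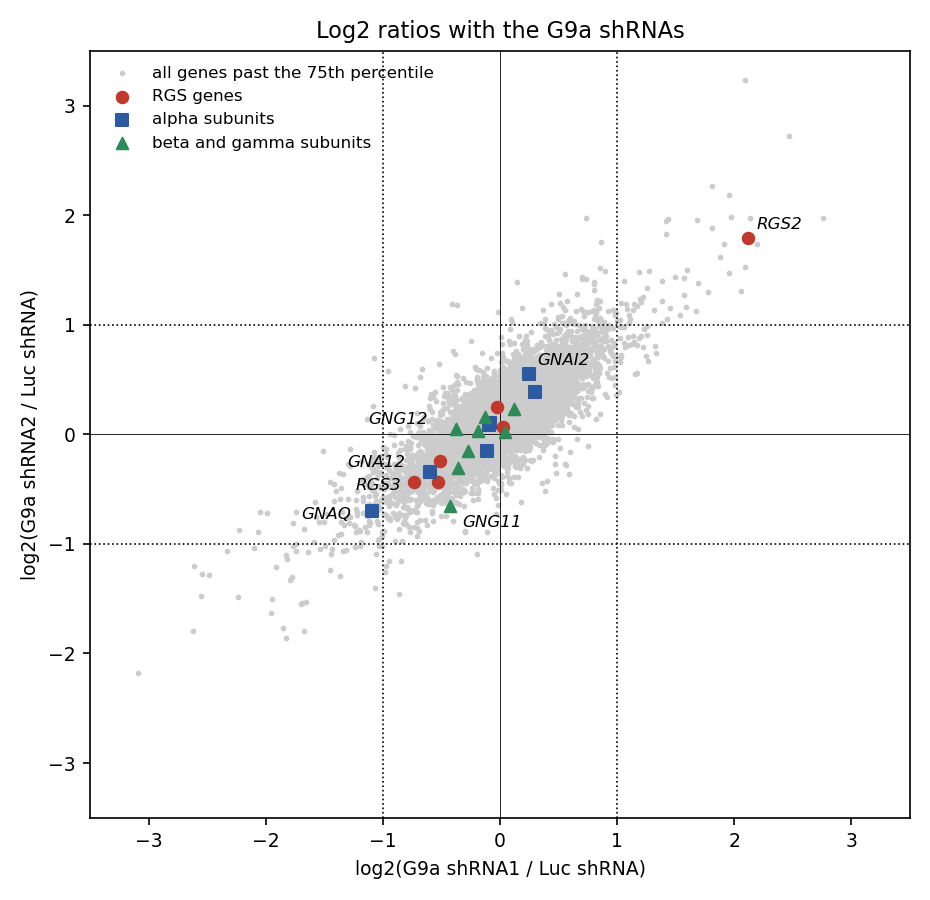
Log2 ratio to Luc shRNA with G9a shRNA1 (horizontal axis) and with G9a shRNA2 (vertical axis) for the 8348 genes past the 75th percentile (grey) and the 21 members among them, as RGS genes (circles), α subunits (squares) and β and γ subunits (triangles). Dotted lines mark 2-fold. RGS2 lies past 2-fold on both axes, GNAQ past it on the horizontal axis only, and both axes share the Luc shRNA array.

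Among the α subunits, GNAQ was the one that moved furthest with a bright signal. GNAQ encodes the α subunit of Gq, which activates phospholipase C-β. Its signals were 305 with G9a shRNA1 and 400.3 with G9a shRNA2, against 651 with Luc shRNA, 2.14-fold and 1.63-fold lower (log2 ratios of -1.09 and -0.70). All 5 GNAQ probe sets were lower with both shRNAs, and 4 of these passed the 75th percentile. The 3 other bright ones gave log2 ratios of -1.14 and -0.86, -1.55 and -0.99, and -1.56 and -1.03, the last of which passed 2-fold with both shRNAs. The fifth, dim and of the _x_at type that may bind other transcripts, gave -0.12 and -0.42. Among the 8348 genes past the 75th percentile, GNAQ ranked 124 on the lower side by the smaller of its ratios.

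GNA11, the closest relative of GNAQ, lay nearer the control. Its signals were 714 with G9a shRNA1 and 692 with G9a shRNA2, against 770.2 with Luc shRNA, log2 ratios of -0.11 and -0.15. Of its 6 probe sets, all past the 75th percentile, 5 were lower with both shRNAs, within -0.82 to -0.11 with G9a shRNA1 over the 6 and within -0.45 to 0.06 with G9a shRNA2. GNA14 and GNA15, the other Gq family genes, were under the filter. GNA14 lies next to GNAQ, and GNA15 next to GNA11. Beyond GNAQ on its other side, CEP78, a centrosome protein, had 0.18 and 0.14, and PSAT1, a serine synthesis enzyme, had -0.46 and -0.23. VPS13A, past GNA14, had -0.18 and 0.04. GCNT1, a glycosyltransferase 5 genes from GNAQ, had -1.11 and -0.65.

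GNAI1 and GNAI2, of the Gi/o family, lay above the control with both shRNAs and GNAI3 lay level with it. GNAI1 had 571 and 609 with the G9a shRNAs, against 465 with Luc shRNA, log2 ratios of 0.30 and 0.39, with 0.02 and 0.21 at its second probe set. GNAI2 had 374 and 463, against 316 with Luc shRNA, log2 ratios of 0.25 and 0.55 at its 1 probe set. GNAI3 had 2273 and 2567, against 2421 with Luc shRNA, and its 3 probe sets all lay within -0.09 to 0.14. All 3 inhibit adenylyl cyclase, and none came near 2-fold. GNAZ, the pertussis toxin resistant member of the family, had 11.3 with G9a shRNA1 and 33.6 with G9a shRNA2, against 30.4 with Luc shRNA, so that only the G9a shRNA1 array was low.

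GNAL, the olfactory relative of Gs and the only gene of that family among the members, was dim. It had 29.9 and 47.3 with the G9a shRNAs, against 32.4 with Luc shRNA, and its 4 probe sets disagreed in sign, from -1.89 to 0.36 with G9a shRNA1 and from -0.77 to 0.55 with G9a shRNA2. In the G12/13 family, GNA12 had 277 and 330.3, against 418 with Luc shRNA, log2 ratios of -0.60 and -0.34. A second, bright GNA12 probe set gave 0.11 and -0.05, and the mean over the pair was -0.22. GNA13 had 1051 and 1197, against 1113 with Luc shRNA, within 0.11 of the control on the log2 scale at its brightest probe set. A second, bright GNA13 probe set gave -0.21 and 0.22, and a dim one gave -0.91 and -0.40.

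**Figure D4:**
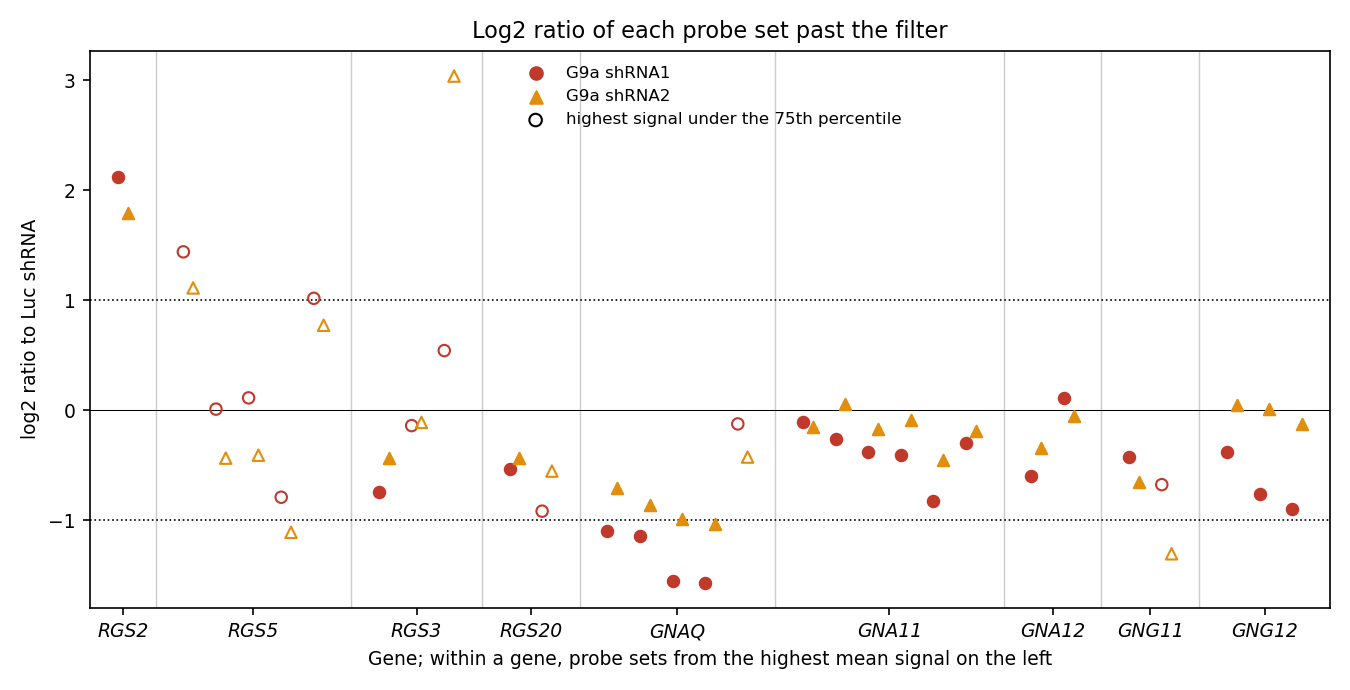
Log2 ratio to Luc shRNA of every probe set past the filter for 9 members, drawn as circles for G9a shRNA1 and triangles for G9a shRNA2. Filled points are probe sets past the 75th percentile, and open points lie between the median (12.0) and it. The 4 filled GNAQ probe sets lie together, from -1.56 to -1.09 with G9a shRNA1 and from -1.03 to -0.70 with G9a shRNA2, while the open RGS5 probe sets scatter on both sides of 0.

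The β subunits, which pair with γ and carry signals of their own, stayed within 2-fold of the control at their brightest probe sets. GNB1 had 1285 and 1567 with the G9a shRNAs, against 1409 with Luc shRNA, and GNB2 had 707 and 765, against 651 with Luc shRNA. GNB5, the partner of the R7 RGS proteins, had 271 and 316, against 308 with Luc shRNA. At the brightest probe sets these stayed within 0.24 of the control on the log2 scale, and other probe sets past the filter reached 0.33 with G9a shRNA2 for GNB1, and -0.44 with G9a shRNA1 and 0.49 with G9a shRNA2 for GNB5. GNB4 had 1289 and 1405, against 1560.3 with Luc shRNA, log2 ratios of -0.28 and -0.15, while its other probe sets, dimmer, gave 0.45 and 0.41 and 0.30 and 0.31, so that its direction depends on the probe set. GNB3, dim, had 15.2 and 12.1, against 19.8 with Luc shRNA.

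Of the 8 γ subunits, 6 were below the control with both shRNAs at the brightest probe set, beside 30.8% of all genes past the filter. None passed 2-fold with both, beside 2.57% of all genes higher and 1.66% lower. Past the 75th percentile, 2 of 4 were below it with both, beside 28.9% of all such genes, so most of the 6 are dim. GNG11, a γ subunit with a farnesyl anchor, had 1113 with G9a shRNA1 and 952 with G9a shRNA2, against 1496 with Luc shRNA, log2 ratios of -0.43 and -0.65. Its second probe set gave -0.67 and -1.30. GNG10 had 2481 and 2564, against 3181 with Luc shRNA, log2 ratios of -0.36 and -0.31. GNG5 was level, with 2849.6 and 2811.7, against 2767 with Luc shRNA.

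GNG12 split by shRNA. It had 1987 with G9a shRNA1 and 2669 with G9a shRNA2, against 2576 with Luc shRNA, and its 3 probe sets were all lower with G9a shRNA1, from -0.89 to -0.37, against -0.12 to 0.05 with G9a shRNA2. The difference was not tested. The remaining 4 were dim. GNG2 had 10.9 and 17.6, against 19.6 with Luc shRNA. Its other probe sets past the filter gave log2 ratios of 0.39 and -0.10, and of -0.42 and -1.96, so its direction with G9a shRNA1 depends on the probe set. GNG7 had 12.0 and 12.2, against 16.3 with Luc shRNA. A second GNG7 probe set, past the filter through the Luc shRNA array alone, gave -0.92 and -3.54. GNG4 had 8.46 and 8.19, against 14.2 with Luc shRNA, and passed the filter through the Luc shRNA array alone. GNG3 had 13.1 with G9a shRNA1 and 2.38 with G9a shRNA2, against 17.7 with Luc shRNA, so its G9a arrays differed more from each other than G9a shRNA1 did from the control.

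As a group the members lay slightly below all genes. The median over the 32 of the mean log2 ratio was -0.15, beside 0.05 over all genes past the filter, and over the 21 past the 75th percentile it was -0.08, beside 0.06. By shRNA the median was -0.23 with G9a shRNA1 and 0.03 with G9a shRNA2, beside 0.00 and 0.12 over all genes. Lower values with both shRNAs were seen in 15 of 32 members (46.9%), beside 30.8% of all genes, and higher values with both in 9 of 32 (28.1%), beside 44.0%. The γ subunits had a median of -0.47, the 9 α genes one of 0.00 and the 10 RGS genes one of 0.08. Past the 75th percentile the medians were -0.25 over 4 γ subunits, 0.00 over 7 α genes and, with the sign turned, -0.17 over 6 RGS genes. After quantile normalization, which lowers the median log2 ratio of all genes with G9a shRNA2 by 0.11, 16 of 32 members were lower with both, beside 38.1% of all genes, and 6 of 8 γ subunits still were.

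Most bright members stayed near the control, though a smaller share of them than of all genes past the same filter. Both ratios lay within 0.5 of 0 on the log2 scale for 13 of the 21 members past the 75th percentile (61.9%), beside 75.4% of all such genes. The G9a shRNA1 signal was below the G9a shRNA2 signal in 17 of 21 (81.0%), beside 74.7% of all genes, and after quantile normalization in 12 of 21 (57.1%), beside 49.6%.

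Genes that act with these proteins were taken as further lists. Of 25 effectors measured, 17 passed the filter. None passed 2-fold with both shRNAs, beside 2.57% of all genes past the filter higher and 1.66% lower. At these shares a list of 17 would hold few or none. PLCB4, a phospholipase C-β activated by Gq, had 954 with G9a shRNA1 and 991 with G9a shRNA2, against 1622 with Luc shRNA, log2 ratios of -0.77 and -0.71, with -0.61 and -0.46 at its second probe set. ADCY6, an adenylyl cyclase that Gi inhibits, had 280.2 and 321, against 173 with Luc shRNA, log2 ratios of 0.70 and 0.89.

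Of 16 other G protein regulators measured, 12 passed the filter. None passed 2-fold with both, beside 2.57% of all genes higher and 1.66% lower. SNX13 and SNX25, sorting nexins that carry an RGS domain, went opposite ways at their brightest probe sets. SNX13 had log2 ratios of -0.82 and -0.82, with -0.26 and -0.10 at its second probe set. Dimmer SNX13 probe sets past the filter gave 0.23 and -0.13, and -2.78 and 0.14. SNX25 had 0.63 and 0.63, with 0.61 and 0.72 at its second probe set and 0.29 and 0.16 at a dimmer one. SNX13 reached the 75th percentile on the Luc shRNA array alone and SNX25 on the G9a shRNA arrays alone, so their directions are a description. RIC8B, a chaperone of α subunits, had 0.22 and 0.29.

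Receptor kinases and arrestins had 7 of 10 past the filter. None passed 2-fold with both, beside 2.57% of all genes higher and 1.66% lower. GRK6 had log2 ratios of -0.59 and -0.32. Of 31 lipid, protease and peptide receptors measured, 16 passed the filter, none was higher and 2 were lower past 2-fold with both, S1PR4 and PTGER1, beside 1.66% of all genes. Both passed the filter through the Luc shRNA array alone, and a second PTGER1 probe set gave 1.22 and 0.46. ACKR3, a chemokine scavenger receptor, had 36.5 and 67.6, against 96.6 with Luc shRNA. ADORA2B, an adenosine receptor that couples to Gs, had log2 ratios of 0.56 and 0.39. ACKR3 reached the 75th percentile on the Luc shRNA array alone and ADORA2B on the G9a shRNA arrays alone, so their directions are a description. F2R, the thrombin receptor, had -0.04 and -0.03. Of 10 further G protein and RGS genes measured, 1 passed the filter, GNGT2, and its ratios had opposite signs.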

How the data were processed

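RNA of 3 SKOV-3 populations was measured, with 1 array per condition. The intensity values were deposited by the authors as MAS5 signals on a linear scale, and the MAS5 settings and version are not given in the sources used here. Probe sets were linked to genes through the array annotation: 41097 had 1 symbol, 1801 several and 11777 none. No signal was at or under 0, and the 2% trimmed means of the arrays lay between 105 and 115, so the number of arrays and the dim signals limit the precision. The values were not rescaled. Each G9a shRNA array was divided by the Luc shRNA array, in log2, and read at the study's size of 2-fold, which is asked here of both shRNAs where the study took either, and all 43 members are accounted for. From each further list up to 3 genes past the 75th percentile were named, those furthest from 0 by the smaller of ratios of the same sign. A gene of the effector list that this rule names is not reported here. The members, lists and rules were chosen with earlier results of these data known. The alternatives were other filters, a floor, quantile normalization, median centring, 1.5-fold and 3-fold rules, means over probe sets, each shRNA alone, limma 3.58.1 (R 4.3.3), in which both G9a arrays form a group and the control, alone, is taken to vary as they do, and 2 settings added after seeing the data. Promoter windows came from the RefSeq table on GRCh38.p14. Python 3.11.15, numpy 2.4.6 and pandas 2.3.3 were used.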

Additional observations from a re-analysis of the deposited data

Results flagged for a closer look

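GNAZ differed between the shRNAs. Its signal was 11.3 with G9a shRNA1 and 33.6 with G9a shRNA2, against 30.4 with Luc shRNA, log2 ratios of -1.43 and 0.15, which differ by -1.58. It has 1 probe set, its signal lies between the median and the 75th percentile, where the difference between the G9a shRNA arrays had an SD of 0.87 over genes, and with 1 array per condition the difference was not tested.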

How the results depend on the processing

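The count of members higher with both G9a shRNAs, 3, became 6 with no filter, and 1 under the stricter filter (75th percentile), with the mean over all probe sets, or with any probe set past the 75th percentile counted, in each case RGS2 for the 1. It was 2 with a filter on the mean signal, with the floor and by limma, where RGS11 was lost, and at 3-fold and with the mean over probe sets past the filter, where RGS5 was lost. The count lower, 0, became 2 with no filter, 2 at 1.5-fold (GNAQ and GNG4), 2 with G9a shRNA1 alone (GNAQ and GNAZ), 1 with G9a shRNA2 alone (GNG3), 1 by limma's adjusted p under 0.05 (GNAQ), 2 with at least 1 shRNA past 2-fold (GNAQ and GNG3) and 1 with any probe set past the 75th percentile counted (GNAQ). The cause of these shifts was not tested. The median log2 ratio of the members, -0.15, was -0.23 over G9a shRNA1 only and 0.03 over G9a shRNA2 only, and -0.22 to -0.08 in the other settings run. Of 224 recomputed ratios of the 32 members, 18 moved by more than the SD of the difference between the G9a shRNA arrays at their signal level, and 31 changed sign, in 15 genes, none of which had passed 2-fold with both shRNAs. No paired analysis was possible because each condition has 1 array. Members with signals under 89.7 rest on dim probe sets, and their ratios scatter more.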
